A study of Homo sapiens with 7 samples.

Results

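The regions described here are the strong binding sites of the vitamin D receptor (VDR) found after hormone treatment on the part of chromosome 5 beyond position 90175161 and on all of chromosomes 6, 7, 8 and 9. They were chosen by their fold enrichment, the peak caller's ratio of signal over background, which had to be 5 or more in a single library, 1,25D replicate 1. This rule gave 643 strong peaks, which are 11.2% of the 5719 peaks of that library on this stretch and belong to the 15262 peaks of its whole list. Because the fold in 1,25D replicate 1 chose the peaks, that fold, the p-value beside it and the peak width are given as descriptions only. The EtOH lists were not used to choose them.

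VDR is a nuclear receptor that binds DNA mostly as a heterodimer with a retinoid X receptor, often at direct repeats of a hexameric half-site. Its ligand, 1α,25-dihydroxyvitamin D3 (1,25D), changes which cofactors the receptor recruits and increases its occupancy of many enhancers, while part of the sites are held by the receptor without ligand. Monocytes and macrophages are established vitamin D target cells, in which the receptor acts on genes of innate immunity and differentiation.

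The samples were THP-1 cells, a human line from an acute monocytic leukaemia, given either 100 nM 1,25D or solvent alone, 0.1% ethanol (EtOH), and harvested at 8 h. An antibody against VDR pulled down the bound chromatin, and adapters were placed by transposition on the beads, the method called ChIPmentation. Each treatment has 3 libraries, an input was not analysed here, and the labels do not say whether replicates came from separate cultures. All came from 1 cell line, so donors do not vary, and the lists hold no expression values against which the cell type could be checked. On this stretch only 1,25D replicate 1, EtOH replicate 1 and EtOH replicate 2 have complete lists as used here, and EtOH replicate 3 reaches chromosome 6 at 86580665. With 1 hormone library there is no replicate of the hormone condition, so no test between treatments was possible and none is reported. Sites are named by position in hg19, since no genome or annotation of that build was used here.

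After hormone, 643 places on this stretch passed a fold of 5, against 240 in EtOH replicate 1 and 267 in EtOH replicate 2. The difference was wider among the strongest peaks. A fold of 10 or more was reached by 178 hormone peaks and by 30 and 41 EtOH peaks, and a fold of 20 or more by 48 hormone peaks and by 9 and 8 EtOH peaks. Lists of all peaks had the opposite order, with 5719 in the hormone list and 6695 and 12270 in the EtOH lists. EtOH replicate 2, with the most peaks, came from a list that admits a p of up to 0.00991, whereas those of both replicates 1 stop at 0.00433 (1,25D) and 0.00431 (EtOH). Read counts are not given, so the depth behind these numbers is unknown.

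The hormone folds of the strong peaks ran from 5.01 to 65.3, with a median of 7.21 and quartiles of 5.56 and 10.6. Of these, 207 had a fold under 6. At the other end stood a detached group, in which 13 sites had folds of 37.6 to 65.3 and no site lay between 28.5 and 37.6. The peaks were 149 to 1220 bp wide with a median of 404 bp. Those under the threshold had a median width of 147 bp, which was also their lowest width. Just inside the threshold were chr6:158817491-158817729 with a fold of 5.01 and chr6:121464298-121464513 and chr8:68959119-68959302 with 5.02. Just outside, 5 peaks shared a fold of 4.98, among them chr6:137539685-137539840, chr6:149100434-149100884 and chr8:13645295-13645529. The threshold therefore cut through a dense range, with 157 peaks at a fold of 5 to 5.5 and 394 at 4.5 to 5. The chr6:149100434-149100884 peak, just outside, had EtOH peaks with folds of 5.47 and 5.19, whereas the other named peaks on both sides of the threshold had none.

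The first question was whether the strong hormone sites were already listed without hormone. They fell into 3 classes. A peak sharing at least 1 bp was listed in both EtOH replicates 1 and 2 at 218 sites (33.9%, exact 95% interval 30.2% to 37.7%), in 1 of them at 160 sites (24.9%, 21.6% to 28.4%) and in neither at 265 sites (41.2%, 37.4% to 45.1%). Intervals of this kind (Clopper-Pearson) cover counting error only. Over all 5719 hormone peaks of the stretch the same shares were 5.07%, 9.39% and 85.5%. By library, EtOH replicate 1 listed 276 of the strong sites (42.9%, against 8.69% of all hormone peaks) and EtOH replicate 2 listed 320 (49.8%, against 10.8%). Of the 160 sites with 1 EtOH peak, 102 had it in EtOH replicate 2, the longer list, and 58 in EtOH replicate 1. A site without an EtOH peak is one where no peak passed the caller's threshold, which does not show that VDR was absent.

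Whether an EtOH peak was listed followed the hormone fold closely. Of the 207 sites with a fold of 5 to 6, 9.66% were in both EtOH lists and 66.7% in neither. At a fold of 6 to 8 (180 sites) the shares were 28.9% and 41.1%, and at 8 to 10 (78 sites) 38.5% and 30.8%. Among the 99 sites with a fold of 10 to 15 they were 52.5% and 24.2%, and among the 31 with 15 to 20 they were 61.3% and 12.9%. Of the 48 sites with a fold of 20 or more, 45 were in both EtOH lists, 2 in 1 list and 1 in neither. Among weaker hormone peaks the share in both lists was 2.51% at a fold of 4 to 5, 0.871% at 3 to 4 and 1% at 2 to 3. The strongest hormone sites were thus nearly all sites that the EtOH libraries also listed, and of the 265 sites in neither, 138 had a fold under 6.

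**Figure D1:**
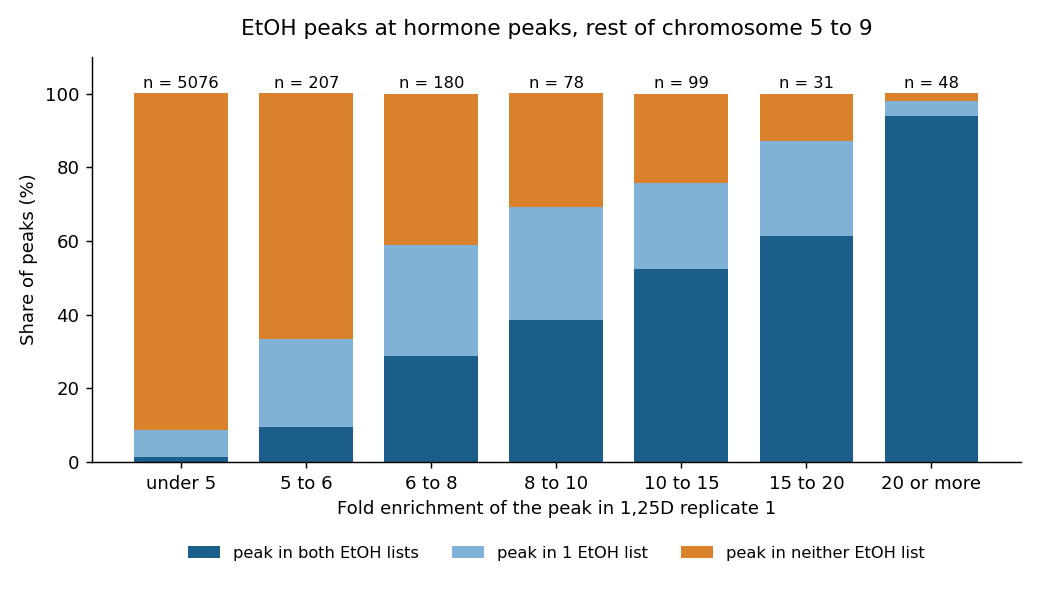
Share of hormone peaks (y axis, %) whose position held a peak in both, 1 or neither of EtOH replicates 1 and 2, by the peak's fold enrichment in 1,25D replicate 1 (x axis), with the number of peaks above each bar. The share in both lists is 1.42% for peaks under a fold of 5 and 93.8% for those of 20 or more.

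The sites in both EtOH lists had a median hormone fold of 10.7 (quartiles 7.21 and 17.6), against 7.16 for sites in 1 list and 5.84 for sites in neither. Their peaks were also wider in the hormone list, with medians of 582, 392 and 296 bp in the same order. At the 218 shared sites, the centres of hormone and EtOH peaks were a median of 55 bp apart in EtOH replicate 1. In EtOH replicate 2 the median was 63.8 bp, and the widest distances were 460 and 464 bp. A match required at least 1 shared bp, which itself keeps the centres near, so these distances are a description. Some sites held several EtOH peaks, 20 of them in EtOH replicate 1 and 26 in EtOH replicate 2. There the highest EtOH fold was taken.

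The strongest of the shared sites was chr8:61816389-61817324, with a fold of 65.3 in 1,25D replicate 1, 45.6 in EtOH replicate 1 and 50.6 in EtOH replicate 2. It ranked first on this stretch in each of these 3 lists, and its hormone fold was the highest of the whole 1,25D replicate 1 list. The second, chr5:139986465-139987288, had a hormone fold of 51.7 beside EtOH folds of 11.3, 9.69 and, in EtOH replicate 3, 11.7. It therefore ranked 2 after hormone but 27 and 42 on this stretch in EtOH replicates 1 and 2, and the 3 EtOH folds were close to each other. Rank 3, chr9:102064582-102065697, had a hormone fold of 48.8 and EtOH folds of 23.1 and 14.5. These 3 sites show how much the EtOH level varied among sites of like hormone fold.

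The strongest site of chromosome 6, chr6:162453546-162454368, had a hormone fold of 48.7 and EtOH folds of 23.3 and 31.3, which ranked 6 and 3 in the EtOH lists. At chr8:129960723-129961484 the hormone fold was 46.1 and the EtOH folds were 30.9 and 29.9. The site chr6:121721761-121722326 had a hormone fold of 45.5 and EtOH folds of 15.2 and 18.2. The last of these ranked 15 and 11 in the EtOH lists, below both others. On chromosome 7 the strongest site was chr7:138802588-138803337, with a hormone fold of 42.3 and EtOH folds of 12.8 and 10.4. Not far below in hormone fold, chr7:39740409-39741050 had 41.4 with EtOH folds of 37.5 and 32.7, ranking second in both EtOH lists. The 2 chromosome 7 sites thus had hormone folds of like size and EtOH folds that did not overlap.

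The site chr6:68598915-68599798 had a hormone fold of 41.5 and EtOH folds of 14.3, 17.3 and 15.5 in EtOH replicates 1, 2 and 3. The tenth, chr6:42340145-42340917, had a hormone fold of 40.3 and EtOH folds of 12.1, 15.7 and 7.17. In both, every EtOH value lay below the hormone value. By the mean of EtOH replicates 1 and 2, the 5 highest sites were chr8:61816389-61817324, chr7:39740409-39741050, chr8:129960723-129961484, chr6:32144964-32145950 and chr6:162453546-162454368. Among these chr6:32144964-32145950 stood out with a hormone fold of 28.5 beside EtOH folds of 23.9, 30.9 and 23.1, so that the hormone value lay within the range of the EtOH values.

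**Figure D2:**
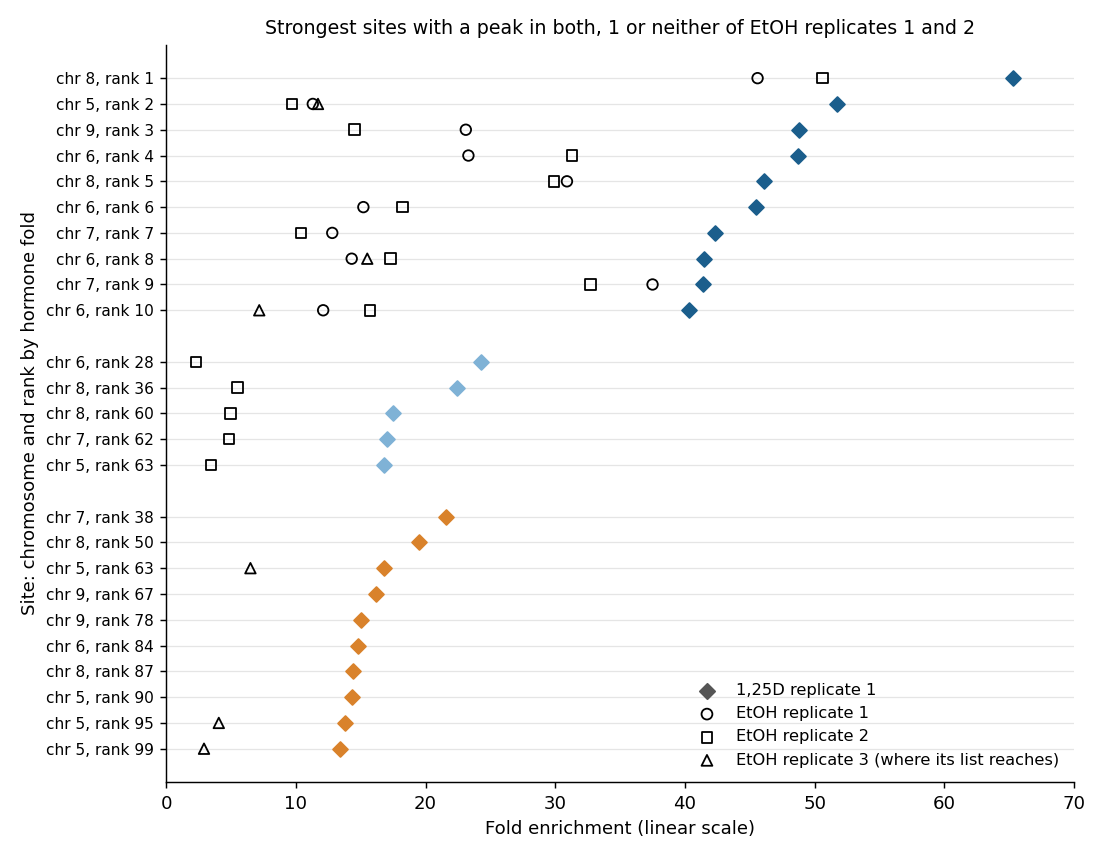
Fold enrichment (x axis, linear scale) of the 10 strongest sites with a peak in both of EtOH replicates 1 and 2, the 5 strongest with a peak in 1 of them and the 10 strongest with a peak in neither, each row a site given by its chromosome and its rank by hormone fold on this stretch. Filled diamonds are 1,25D replicate 1 and open symbols the EtOH libraries that list a peak, and in the uppermost block the hormone fold exceeds every EtOH fold.

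Next, the size of the EtOH peak was set beside the hormone peak at all 218 sites with both. The EtOH folds had medians of 5.24 in EtOH replicate 1 (range 2.16 to 45.6) and 5.66 in EtOH replicate 2 (range 2.75 to 50.6). The hormone fold was above both EtOH folds at 194 sites, between them at 22 and below both at 2. Over all 290 hormone peaks with both EtOH peaks, which include the 218, 216 (74.5%) had a hormone fold above both. At 72 of the 218 sites the hormone fold was at least 2 times either EtOH fold. These same 72 are the 24.8% of the 290 that reached this, as no peak under a fold of 5 did. The 290 are therefore not a separate background. The strong sites were chosen for a high hormone fold, which favours these counts, and folds come from separately processed lists, so nothing is read from them alone. Between EtOH replicates 1 and 2 at the 218 sites, the higher fold exceeded the lower by a median factor of 1.24 (quartiles 1.14 and 1.46, highest 2.98). This spread leaves out the 160 sites listed in only 1 of them. The spread between hormone libraries is unknown on this stretch.

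Strong EtOH peaks were also taken as the starting point, a choice that in turn rests on a high EtOH fold. Of the 240 EtOH replicate 1 peaks with a fold of 5 or more, 144 had a hormone peak, and at 114 of these (79.2%) the hormone fold was the higher. The 96 without a hormone peak have no hormone fold to compare, and the 114 are 47.5% of all 240. Median folds at the 144 were 6.74 in EtOH and 11.7 after hormone. In EtOH replicate 2, 168 of 267 such peaks had a hormone peak, and the hormone fold was the higher at 131, which are 78.0% of the 168 and 49.1% of the 267. Median folds at the 168 were 6.92 and 12. At EtOH folds of 10 or more every peak overlapped a strong hormone site, all 30 in EtOH replicate 1 and all 41 in EtOH replicate 2, so no peak was left out of the comparison. The hormone fold was the higher at 29 of the 30 and at 34 of the 41. Taking 3 counts of the total as the limit for a count of 0, shares of up to 10% and 7.32% without a hormone peak remain possible, and the upper ends of the exact 95% intervals were 11.6% and 8.6%.

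The ratio of the hormone fold to the mean EtOH fold had a median of 1.73 over the 218 sites, with quartiles of 1.30 and 2.57. It was larger at stronger sites, with a median of 1.32 for the 72 sites of fold 5 to 8, 2.12 for the 101 sites of fold 8 to 20 and 2.71 for the 45 sites of fold 20 or more. The mean EtOH folds of the same groups had medians of 4.56, 5.28 and 11.2. Since the grouping used the hormone fold, which is also the numerator, this order is a description. Across the 218 sites, Spearman's rho between hormone and EtOH folds was 0.492 for EtOH replicate 1 and 0.543 for EtOH replicate 2, and 0.677 between the EtOH replicates. These are correlations over sites of the same libraries, with the hormone values limited to a fold of 5 or more.

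Sites at either end of this ratio were picked after their values were seen. The highest ratio, 6.28, was at chr6:135869701-135870309, where the hormone fold of 23.3 stood beside EtOH folds of 3.67 and 3.77. The strong chromosome 5 site at 139986465 followed with a ratio of 4.92. Its neighbour chr5:139988273-139989091 had a hormone fold of 27.0 and EtOH folds of 5.95, 6.23 and 5.79, a ratio of 4.44. Both peaks of this pair had EtOH folds that differed little among the 3 EtOH libraries. Next came chr6:35428785-35429418 with a ratio of 4.75 (hormone fold 21.1, EtOH folds 5.32, 3.55 and 4.92) and chr8:129890117-129890732 with 4.74 (hormone fold 24.9, EtOH folds 6.11 and 4.4). The latter lies 69991 bp before chr8:129960723-129961484, whose ratio was 1.52, so neighbouring strong sites could have unlike ratios.

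At the other end, 11 sites had a mean EtOH fold above the hormone fold. The lowest ratio, 0.827, was at chr9:32348703-32349526, with a hormone fold of 6.86 and EtOH folds of 8.79 and 7.80. The strongest of the 11 was chr6:51861340-51862150, with a hormone fold of 17.6 and EtOH folds of 19.2, 22.0 and 20.1, all above the hormone value. These are the only 2 of the 218 sites where EtOH replicates 1 and 2 both exceeded the hormone fold. At the other 9, for instance chr8:99956651-99957370 with a hormone fold of 9.39 and EtOH folds of 8.17 and 13.5, the hormone value lay between the EtOH values.

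**Figure D3:**
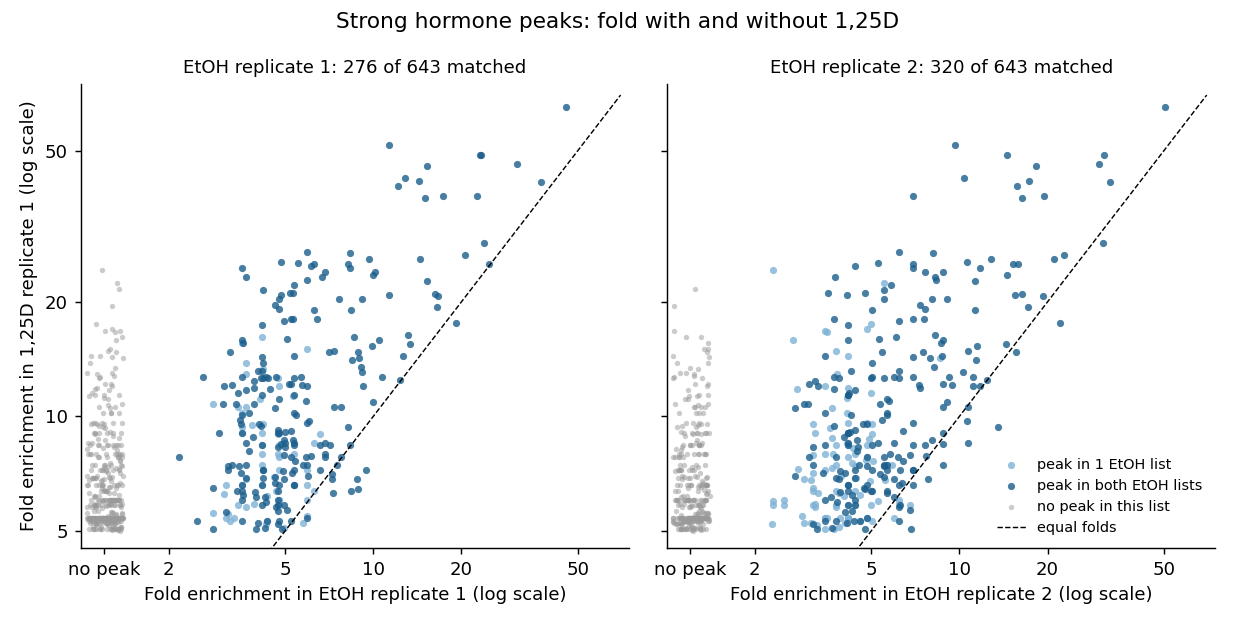
Fold enrichment of each strong hormone site in 1,25D replicate 1 (y axis, log scale) against its fold in EtOH replicate 1 or 2 (x axis, log scale), 1 point per site, with sites that have no peak in that EtOH list in a band at the left (spread sideways for legibility) and a dashed line at equal folds. The matched sites lie mostly above the line, and the unmatched sites, 367 in EtOH replicate 1 and 323 in EtOH replicate 2, have hormone folds of up to 24.3.

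The sites with no peak in EtOH replicates 1 and 2 had lower hormone folds, up to 21.6. The strongest was chr7:148281186-148281772, with a hormone fold of 21.6 and a p of 5.53e-49, and the nearest EtOH peak of either list lay 4820 bp away. It was followed by chr8:25202976-25203354 with a fold of 19.5, where the nearest EtOH peak was 17621 bp away. Next, chr5:150169262-150170132 had a fold of 16.8 and no peak in EtOH replicates 1 and 2, but EtOH replicate 3 listed it with a fold of 6.49. Another EtOH list could therefore move a strong site out of this class.

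On chromosome 9, chr9:128669663-128670097 had a hormone fold of 16.2 and chr9:80602769-80603314 had 15. The first was 44381 bp from the nearest EtOH peak and the second only 270 bp. On chromosome 6, chr6:44001980-44002608 had a fold of 14.8 and none of the 3 EtOH libraries listed it, with the nearest peak of EtOH replicates 1 and 2 at 175504 bp. The site chr8:76236220-76236577 had a fold of 14.4 and an EtOH peak 64 bp from its edge. Sites such as this one and the chromosome 9 site at 80602769 count as unmatched although an EtOH peak adjoins them. Beside the chromosome 8 site lies another strong site, chr8:76236640-76236888 (hormone fold 7.43), matched by an EtOH replicate 2 peak of 3.78. The adjoining EtOH peak may therefore belong to that neighbour, which was not examined.

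The remaining 3 of the 10 were on chromosome 5. The site chr5:139704126-139704627, with a hormone fold of 14.3, had no peak in any of the 3 EtOH lists. At chr5:90458471-90459072 the hormone fold was 13.8 and EtOH replicate 3 listed a peak with a fold of 4.05. At chr5:177965876-177966368 they were 13.4 and 2.91. Of the 10 strongest unmatched sites, 5 were covered by EtOH replicate 3, and 3 of those 5 had a peak there.

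Over all 265 unmatched sites, the nearest EtOH peak was a median of 13200 bp away (quartiles 3690 and 30100 bp). It was within 500 bp at 21 sites, within 10 kb at 123 and farther than 100 kb at 23. Counting EtOH peaks within 500 bp as a match left 37.9% of the strong sites without one.

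Among sites in 1 EtOH list, the strongest was chr6:44585715-44586560, with a hormone fold of 24.3 and a fold of 2.30 in EtOH replicate 2. That EtOH peak ranked 11840 of 12270 on this stretch, and neither EtOH replicate 1 nor EtOH replicate 3 listed the site. At chr8:27157041-27157741 a hormone fold of 22.4 stood beside 5.51 in EtOH replicate 2, at rank 181. The sites chr8:135988639-135989471, chr7:122945951-122946453 and chr5:149060151-149061171 had hormone folds of 17.5, 17 and 16.8 and folds of 4.97, 4.84 and 3.46 in EtOH replicate 2. For all 5 the single EtOH peak was in EtOH replicate 2. Of the 160 sites of this class, 25 had an EtOH fold of 5 or more.

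EtOH replicate 3 provided a separate look at the part it covers, which held 159 of the strong sites. It listed 76 of them (47.8%), against 11% of all 1184 hormone peaks there. Of the 48 covered sites found in both other EtOH lists, 46 (95.8%) were in EtOH replicate 3 too. The share was 43.6% (17 of 39) for sites in 1 list and 18.1% (13 of 72) for sites in neither. Taking the 3 EtOH lists together, 46 sites were in all 3 (28.9%, against 4.90% of all hormone peaks), 19 in 2, 35 in 1 and 59 in none (37.1%, against 80.6%). At the 13 sites that EtOH replicate 3 alone listed, its folds were 2.66 to 6.49.

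The reverse direction was then examined, namely EtOH peaks with a fold of 5 or more and no hormone peak. There were 96 of 240 in EtOH replicate 1 (40%, exact 95% interval 33.8% to 46.5%) and 99 of 267 in EtOH replicate 2 (37.1%, 31.3% to 43.2%). Over all EtOH peaks of the stretch the shares were 92.5% and 94.9%. These peaks were weak, with medians of 5.36 and 5.31 and highest folds of 6.82 and 6.48. Of the 96, 12 were in EtOH replicate 2 at any fold (12.5%), and of the 99, 6 were in EtOH replicate 1 (6.06%). Over all EtOH peaks of the stretch, 7.48% of those of EtOH replicate 1 were in EtOH replicate 2 and 4.01% the other way round. Among EtOH peaks of a fold of 5 or more that did have a hormone peak, 128 of 144 (88.9%) and 146 of 168 (86.9%) were in the other EtOH list.

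The clearest of them, chosen after the values were seen, was at chr5:146130681-146130944, with a fold of 5.81 in EtOH replicate 1 and 5.89 in EtOH replicate 2, and the nearest hormone peak 301645 bp away. It was the only place on the stretch where both EtOH folds were 5 or more and no hormone peak lay within 500 bp. The EtOH replicate 2 peak chr9:32349750-32349949, with a fold of 6.48, had its nearest hormone peak 75 bp away. That peak is not the strong site chr9:32348703-32349526 described above, whose edge lies farther off. At chr8:112476235-112476534 the folds were 6.82 in EtOH replicate 1 and 4.4 in EtOH replicate 2, with a hormone peak 5162 bp away.

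The class shares over all strong sites were then compared with the rest of the same hormone list. Applied to the rest of the list, the fold rule gave 1642 peaks, of which 33.0% (exact 95% interval 30.7% to 35.3%) were in both EtOH replicates 1 and 2 and 41.8% (39.4% to 44.2%) in neither. For all hormone peaks there the shares were 7.46% and 82.3%. The values of 33.9% and 41.2% on chromosomes 5 to 9 lay within these intervals. By chromosome, the share in neither list was 45.3% for the rest of chromosome 5 and for chromosome 6, 40.4% for chromosome 7, 37.5% for chromosome 8 and 37.8% for chromosome 9. Elsewhere it ran from 31.9% on chromosome 11 to 52.3% on chromosome X. The share in both lists was lowest on the rest of chromosome 5, at 21.3% of 75 sites (12.7% to 32.3%), and 31.5% to 37.4% on the other 4 chromosomes. Outside the stretch that share ran from 15.9% on chromosome X to 42.6% on chromosome 20, a range that holds all of these values. Within fold classes there were gaps in either direction. At a fold of 6 to 8, both EtOH lists held 28.9% of the sites here (exact 95% interval 22.4% to 36.1%) and 20% elsewhere (16.8% to 23.7%). Neither list held 41.1% of them here (33.8% to 48.7%) and 52.6% elsewhere (48.3% to 56.8%). At a fold of 10 to 15, neither list held 24.2% here (16.2% to 33.9%) and 16.6% elsewhere (11.9% to 22.2%). These gaps were not tested.

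How often such peaks are found again with hormone cannot be read on chromosomes 5 to 9, where the other hormone lists do not reach. Elsewhere it could be read. On chromosomes 1, 10 to 15 and 16 up to 50293713, covered by all libraries, 753 peaks of 1,25D replicate 1 had a fold of 5 or more, and 90.4% (88.1% to 92.4%) of them were in both other hormone lists, against 24.3% of all its peaks. The share was 71.6% at a fold of 5 to 6 and 93.7% at 6 to 8, and all 302 peaks above were in both. Of the 306 without a peak in EtOH replicates 1 and 2, 81.7% were in both other hormone lists, and 17% were in EtOH replicate 3. In the following part of the genome, up to chromosome 5 at 90175161, 93.4% of 844 such peaks were in 1,25D replicate 3, against 34.7% of all peaks. There the share was 85.2% for the 357 without a peak in EtOH replicates 1 and 2.

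**Figure D4:**
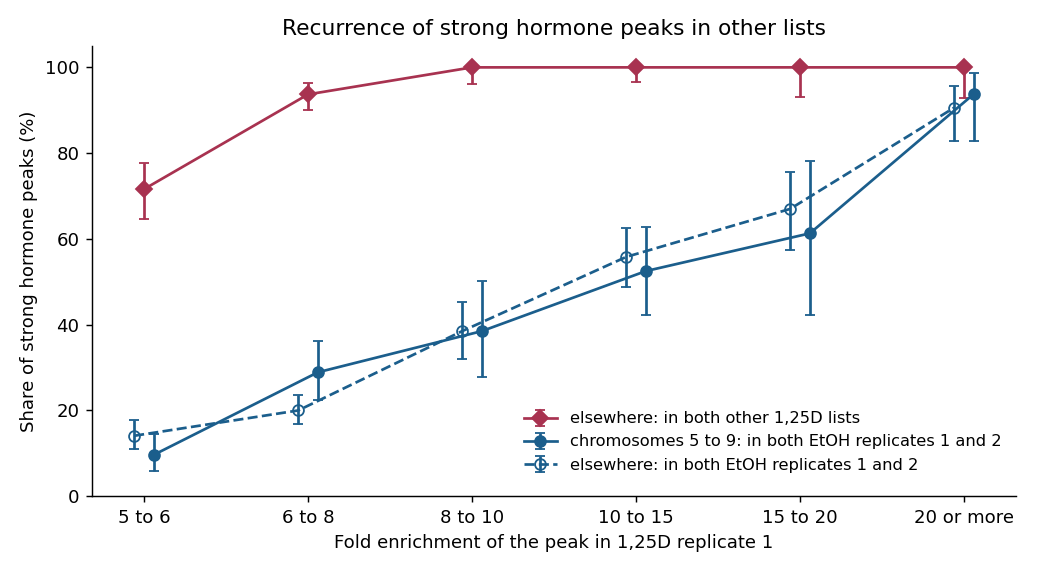
Share of strong hormone peaks (y axis, %) found in other lists, by fold enrichment in 1,25D replicate 1 (x axis). Red diamonds are peaks of the part covered by all libraries found in both other 1,25D lists, blue circles are peaks found in both EtOH replicates 1 and 2 on chromosomes 5 to 9 (filled) or in the rest of the list (open), and bars are exact 95% intervals for counting error. The red series reaches 100% at a fold of 8, and the blue ones climb from 9.66% and 14.1% to 93.8% and 90.6%.

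The strong sites were spread over all 5 chromosomes in a way that the weaker peaks were not. Chromosome 6 held 190 of them, chromosome 8 held 168, chromosome 9 held 111, chromosome 7 held 99 and the rest of chromosome 5 held 75. Per Mb of the stretch between the outermost peaks, this is 1.11 on chromosome 6, 1.15 on chromosome 8, 0.789 on chromosome 9, 0.623 on chromosome 7 and 0.829 on chromosome 5. The length used for chromosome 9 includes 40 to 50 Mb, with 0 hormone peaks, and 60 to 70 Mb, with 2, which lowers its values per Mb. Hormone peaks of a fold under 5 numbered 11 and 12 per Mb on chromosomes 6 and 8, but 3.18 to 4.57 on the other 3. Strong sites thus made up 9.22% and 8.74% of the hormone peaks of chromosomes 6 and 8 and 14.7% to 19.9% of those of chromosomes 9, 7 and 5. EtOH replicate 1 peaks of any fold were uneven too, with 14.7 and 16.6 per Mb on chromosomes 6 and 8 and 3.64 to 5.74 on the others. Those of a fold of 5 or more numbered 17, 76, 35, 80 and 32 on chromosomes 5 to 9. In EtOH replicate 2 they numbered 23, 90, 38, 76 and 40. Whether strong hormone and strong EtOH peaks differ in spread was not tested.

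Within chromosomes the weaker peaks changed in steps. Over the first 30 Mb of chromosome 6 there were 17 of them, or 5.67 per window of 10 Mb, and from 30 to 170 Mb there were 1849, or 132 per window. Strong sites numbered 5.33 and 12.2 per window over the same parts. On chromosome 9 the first 20 Mb held 152 weaker peaks per window and 10 strong sites, while 70 to 140 Mb held 35.4 weaker peaks and 10.4 strong sites per window. The EtOH lists had the steps too, with 12 EtOH replicate 1 peaks in the first 30 Mb of chromosome 6 against 2484 from 30 to 170 Mb. On chromosome 9 that list had 444 peaks in the first 20 Mb and 243 from 70 to 140 Mb. Of the 16 strong sites in the first 30 Mb of chromosome 6, 12 had no peak in EtOH replicates 1 and 2 (75%), against 73 of 171 (42.7%) from 30 to 170 Mb. Over all hormone peaks of these parts, strong sites included, the shares were 27 of 33 (81.8%) and 1745 of 2020 (86.4%). Strong sites made up 48.5% of the peaks in the first part and 8.47% in the second, so these shares rest on unlike mixes. The part that the local number of weaker peaks has in these shares was not tested.

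**Figure D5:**
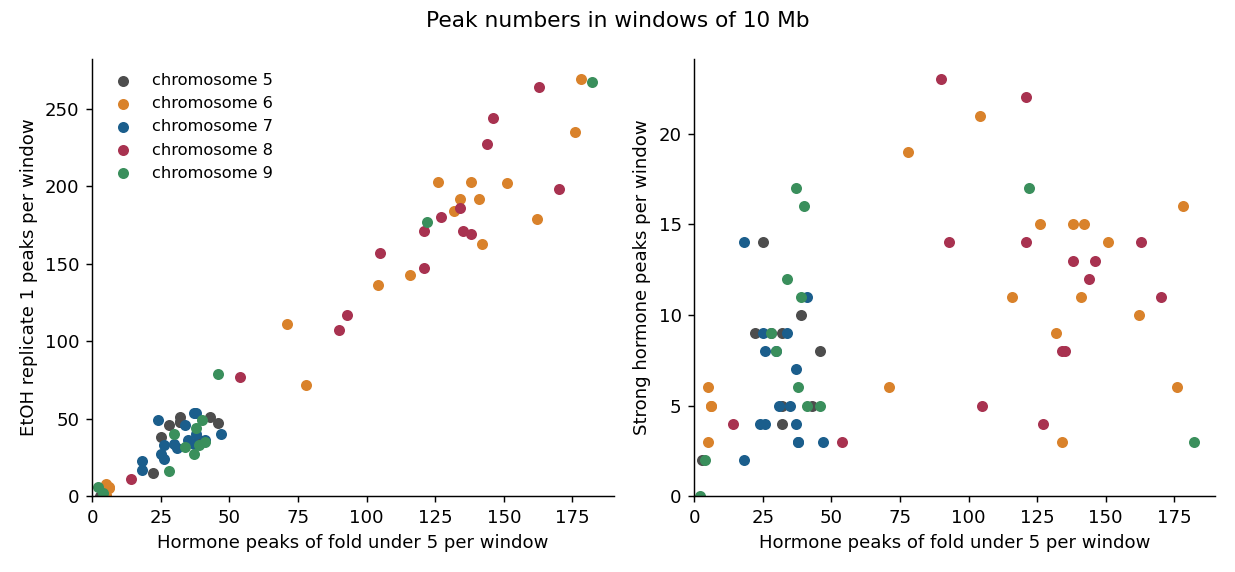
Peak numbers in the 72 windows of 10 Mb with a hormone peak, 1 point per window and 1 colour per chromosome, with hormone peaks of a fold under 5 on the x axis. EtOH replicate 1 peaks of any fold (left, y axis) lie close to a line with them. Strong hormone peaks (right, y axis) spread between 0 and 23 per window without such a line.

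Over the 72 windows, weaker hormone peaks numbered 2 to 182 (median 40.5), EtOH replicate 1 peaks 0 to 269 (median 49) and strong sites 0 to 23 (median 8). Spearman's rho with the weaker hormone peaks was 0.446 for strong sites. For EtOH peaks of any fold it was 0.936 in EtOH replicate 1 and 0.949 in EtOH replicate 2. All windows share the same libraries, and these are descriptions. The windows richest in strong sites were chromosome 8 at 20 to 30 Mb with 23, chromosome 8 at 120 to 130 Mb with 22 and chromosome 6 at 40 to 50 Mb with 21. Each of these also held sites of all 3 classes, with 7, 10 and 10 in both EtOH lists and 9, 8 and 9 in neither.

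Most strong sites stood alone. The distance from a site to the next on its chromosome had a median of 507000 bp, and 565 of the 643 had no other within 10 kb. The remaining 78 formed 37 groups, of which 4 had 3 sites and none had more. In 13 cases neighbours were within 1000 bp, the closest 63 bp apart, and whether these are separate sites was not tested. Grouped and lone sites had similar shares by EtOH class. Of the 78 grouped sites 34.6% were in both EtOH lists, and of the 565 lone ones 33.8%. The shares in neither were 38.5% and 41.6%. Whether they differ was not tested, and the grouped sites are few.

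The groups of 3 sites were as follows. On chromosome 5, chr5:149057258-149058133 (hormone fold 12.6) had no EtOH peak, while chr5:149060151-149061171 (16.8) and chr5:149062250-149062800 (6.29) had EtOH replicate 2 peaks of 3.46 and 3.28. On chromosome 8, chr8:37448649-37449167 and chr8:37457383-37457818 (hormone folds 8.29 and 9.13) were in both EtOH lists, and chr8:37462100-37462429 (5.47) was in EtOH replicate 2 alone, with 2.89. The strongest site of a group was in both EtOH lists in 2 of the 4 groups.

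Also on chromosome 8, chr8:119294030-119294816 (hormone fold 14.3) had EtOH folds of 4.17 and 6.92. Its neighbour chr8:119292072-119292326 (7.10) had 5.27 and 4.08, and chr8:119297646-119297796 (5.33) had none. In the last group, chr8:134511331-134511932 (15.6) had EtOH folds of 3.60 and 8.65 and chr8:134517180-134517827 (16.7) had 3.53 in EtOH replicate 2 only. Between them, chr8:134513381-134513788 (7.43) had no EtOH peak. Each of the 4 groups held sites of more than 1 class.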

How the data were processed

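Each library has its own peak list, so peaks were called per library. The submitters' processing notes name Bowtie 1.1, MACS2 and the build hg19 (GRCh37); settings and control of the peak caller: not given in the sources used here. The fold enrichment is a ratio and the p-value a linear p, both computed by the authors' peak caller, per the file headers. Whether starts count from 0 or 1 is not stated; positions are those of the lists. The lists of 1,25D replicates 2 and 3 and EtOH replicate 3 end in mid-line as used here, and that line was left out. Depth is unknown.

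A strong site was matched to an EtOH peak sharing at least 1 bp, and the highest EtOH fold was taken. Matching was tested on simulated lists. Python 3.11.15, pandas 2.3.3 and scipy 1.17.1 (intervals, rank correlations) were used. Named sites are the 10, 10 and 5 with the highest hormone fold in both, neither or 1 of EtOH replicates 1 and 2, the highest of each chromosome, the 5 highest by EtOH fold, the largest groups within 10 kb and the peaks nearest the threshold. The sites, rules and comparisons were chosen with earlier results of these data known. Motif and gene comparisons needed a genome or annotation of hg19 and were not run.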

Additional observations from a re-analysis of the deposited data

How the results depend on the processing

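No paired analysis was possible because 1 hormone library covers this stretch, so the treatments share only 1 replicate number there. With 50% overlap, EtOH centres inside the site, EtOH peaks within 500 bp, EtOH folds of 3 or more, 1 highest p of 0.00431 or equal EtOH lists of 6695 peaks, the share of strong sites in no EtOH list was 37.9% to 44.9%. It moved with the threshold, as did the share in every EtOH list: 73.4% and 12% at a fold of 4, 20.7% and 57.0% at 8, 16.3% and 65.2% at 10. Without EtOH replicate 1 or EtOH replicate 2, where only 1 list has to hold or lack a peak, the shares were 50.2% and 57.1% in none and 49.8% and 42.9% in every list, and outside the stretch 49.5% and 59.3%, and 50.5% and 40.7%. Outside the stretch, the share in none was 44.2% with EtOH centres inside the peak and 39.1% within 500 bp, where the share in every list was 35.5%. The recurrence of 90.4% was 84.2% with centres inside the peak. Strong EtOH peaks with no hormone peak made up 38.5% of both lists pooled, 37.1% to 40% with 1 list left out and 0% at an EtOH fold of 10 or more. The median EtOH fold of 5.49 ranged from 5.24 to 5.66 with 1 list left out. Groups numbered 62 within 50 kb and 6 among sites of fold 10 or more. Of 50 alternatives, 29 stayed within the interval, spread or 1.5-fold range of the main value and 21 moved. The sequence alternatives were not run. Peak lists give no depth, so weak EtOH signal under the caller's threshold cannot be seen.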
